A study of Mus musculus with 8 samples.

Results

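Zim1 and 9 other imprinted genes linked to growth (Peg3, H19, Igf2, Cdkn1c, Plagl1, Mest, Grb10, Ndn and Peg10) were followed in mouse hind-limb sarcomas with and without HIF-2α. They are 10 of the 26667 genes counted, and were taken by symbol as imprinted genes outside the Dlk1-Meg3 locus. They were picked with their KPH2 and KP levels in view, so the difference between the groups is described for them and not tested. RNA from 8 formalin-fixed, paraffin-embedded UPS tumours (undifferentiated pleomorphic sarcoma) was sequenced after removal of ribosomal RNA, with 1 library per tumour and total counts of 6463221 to 13155510. The 4 KP tumours (KP 5 to KP 8) came from KP mice, whose alleles include Trp53 fl/fl. The 4 KPH2 tumours (KPH2 1 to KPH2 4) carried the same alleles as KP and Epas1 fl/fl, the floxed gene of HIF-2α, labelled Epas1 -/-. All mice were of a mixed 129/C57BL/6 background, of both sexes and 8 weeks or older. Cre was delivered to hind-limb muscle by adenovirus, and the end point was either a fixed time of 7 weeks or a size limit. Recombination took place only in cells that the virus reached, so host cells of the tumour kept Epas1. KPH2 1 is absent from the smaller of the authors' normalized tables, and the study left out 1 knockout sample as a technical outlier. Its values are therefore given apart, and group values refer to the 4 KP tumours and KPH2 2 to KPH2 4 unless all 8 are named.

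Imprinted genes are expressed mainly from one parental copy, which is marked by DNA methylation laid down in the germ line. Many of them set fetal growth. Paternally expressed genes such as Igf2, Peg3, Mest and Peg10 are often growth-promoting, and maternally expressed genes such as H19, Cdkn1c and Grb10 often restrain growth. In muscle, Peg3 (PW1) marks satellite cells and other progenitors, and Igf2 and H19 are switched on as myoblasts differentiate. Gene counts do not tell the parental copies apart, so none of the values below bears on imprinting itself.

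Zim1 and Peg3 are neighbours on chromosome 7, read from the same strand and 7.35 kb apart (Zim1 chr7:6674444-6696540, Peg3 chr7:6703892-6730462, GRCm38, minus strand), while Plagl1 lies on the plus strand of chromosome 10 (chr10:13090832-13131694). The sequence ahead of the start of these 3 genes is shown because Zim1 and Peg3 had the largest positive differences among the 10 genes and Plagl1 the largest negative one. RefSeq windows on GRCm38.p6 were matched for 7 of the 10 genes (Zim1, Peg3, Igf2, Plagl1, Mest, Grb10 and Ndn), 13 windows in all. The 3 stretches printed run 5′ to 3′ on the gene's strand and leave out any base inside the annotated gene. Capitals mark GGGGCCCC, a palindrome of the kind bound by Plagl1, and ACGTG or its reverse complement CACGT, the core of the hypoxia response element. Where both overlap in CACGTG, all 6 letters are in capitals.
Zim1, chr7:6696541-6696682, minus strand: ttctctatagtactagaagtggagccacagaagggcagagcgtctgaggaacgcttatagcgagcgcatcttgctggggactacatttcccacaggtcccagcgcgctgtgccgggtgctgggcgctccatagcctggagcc
Peg3, chr7:6730463-6730669, minus strand: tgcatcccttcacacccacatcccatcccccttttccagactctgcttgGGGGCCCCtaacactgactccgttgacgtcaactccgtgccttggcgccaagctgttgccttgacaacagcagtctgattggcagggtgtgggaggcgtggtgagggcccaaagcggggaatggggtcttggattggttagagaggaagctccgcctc
Plagl1, chr10:13090582-13090831, plus strand: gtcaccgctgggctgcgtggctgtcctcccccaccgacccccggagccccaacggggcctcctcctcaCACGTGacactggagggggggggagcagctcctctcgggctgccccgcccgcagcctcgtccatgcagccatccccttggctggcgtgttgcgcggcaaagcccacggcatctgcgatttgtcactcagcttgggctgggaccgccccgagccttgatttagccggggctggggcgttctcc

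On either strand, the ACGTG core was found in 2 of the 13 windows of 250 bases, that of Plagl1 and 1 of the 4 of Igf2, and it is present in 16.6% of all 32851 windows. GGGGCCCC was found in 1 of the 13, that of Peg3, against 0.889% of all windows. Neither set of letters was found in the window of Zim1. The windows of 250 bases of Zim1, Peg3 and Plagl1 held 14, 8 and 19 CG pairs, beside a median of 6 over all windows. Those of Zim1 and Peg3 run into the annotated gene, and the stretches printed above, of 142, 207 and 250 bases, hold 8, 7 and 19. These are matches of letters and say nothing of binding in these tumours.

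Mest, on chromosome 6, hosts miR-335, whose mature forms from RefSeq are shown because the counts of its precursor gene are given below. The seed (bases 2 to 8) is in capitals, and the 2 arms share no seed.
mmu-miR-335-5p, chr6:30741314-30741336, plus strand: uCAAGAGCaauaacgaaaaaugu
mmu-miR-335-3p, chr6:30741354-30741375, plus strand: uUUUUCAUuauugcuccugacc

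Levels are given as CPM, counts scaled to a common library total with TMM factors, and differences as fitted log2 fold changes, KPH2 minus KP, with standard errors (SE). In KPH2 2 to KPH2 4 against KP, 4 of the 10 genes lay wholly above the KP range (Zim1, Peg3, Mest and Peg10), 1 lay wholly below it (Plagl1) and 5 overlapped it (H19, Igf2, Cdkn1c, Grb10 and Ndn). Over all 14867 genes tested, the groups did not overlap for 16.9%, with 8.67% higher and 8.2% lower in KPH2. In the quasi-likelihood test of edgeR 292 genes, or 1.96%, passed a Benjamini-Hochberg adjusted p of 0.05, 1.24% higher and 0.72% lower in KPH2. Of the 10 genes 1 was among them, Zim1, and since they were chosen from this contrast nothing is read from that count. DESeq2 called 4 of the 10 against 7.25% of its 16250 genes, and for the same reason nothing is read from it. An unadjusted p under 0.05, which is counted for some lists below, was found for 17.8% of all genes tested over the 7 tumours and for 14.7% over all 8. With KPH2 1 included 1 gene of 14805, or 0.00675%, passed, and it was not one of the 10. The median log2 fold change was 0.31 over the 10 genes, 8 of them positive, and -0.02 over all genes tested.

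**Figure D1:**
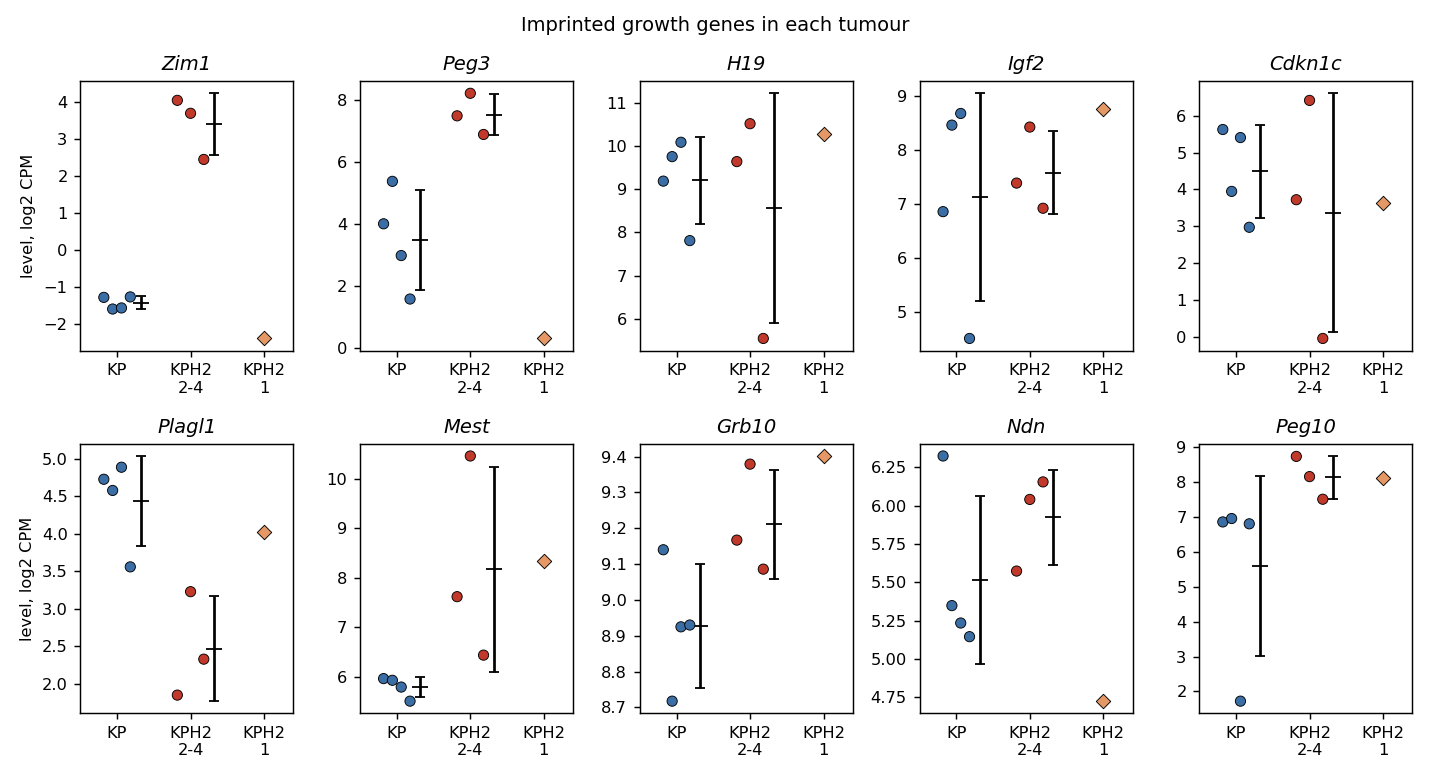
Level of each of the 10 genes in every tumour as log2 CPM with a prior count of 2, with a separate y axis per gene. Circles are KP tumours (blue, n = 4) and KPH2 2 to KPH2 4 (red, n = 3), diamonds are KPH2 1, and bars give the mean and SD of the group beside them. KPH2 1 lies below the KP tumours for Peg3 and Ndn, cannot be told from them for Zim1 (0 counts against 1 to 3), and lies above them for H19, Igf2, Mest, Grb10 and Peg10.

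Zim1, a maternally expressed zinc-finger gene, was almost silent in KP tumours. Its counts were 3, 1, 1 and 3 in KP 5, 6, 7 and 8, at or under a floor of 3 counts, and 182, 128 and 47 in KPH2 2, 3 and 4. As levels these were 0.222, 0.141, 0.148 and 0.226 CPM in KP (mean 0.184 ± 0.0461, SD, n = 4) and 16.3, 12.8 and 5.28 CPM in KPH2 (mean 11.5 ± 5.64, n = 3). KPH2 1 had 0 counts of Zim1, which allows up to 0.24 CPM. All 3 other KPH2 tumours stood above every KP tumour, while KPH2 1 could not be told from KP. Over the pooled counts, 357 against 8, the ratio was 60.3, with an exact 95% interval of 30.3 to 141 that covers counting error only. The fitted log2 fold change was 5.80 (SE 0.50) and ran from 5.46 to 6.15 when each of the 7 tumours was left out in turn. With all 8 tumours Zim1 fell short of the count filter and was not fitted. Without that filter the log2 fold change over all 8 was 5.40, with a larger SE of 1.30. In the authors' rlog values, which shrink low counts toward the mean of a gene, the difference of the group means was 2.02 over 7 tumours and 2.28 over 8.

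Peg3, the paternally expressed neighbour, encodes a large zinc-finger protein. Its level was 15.9, 41.4, 7.69 and 2.79 CPM in KP 5, 6, 7 and 8, and 180, 298 and 119 CPM in KPH2 2, 3 and 4. KPH2 1 held 1.04 CPM, the lowest of all 8. The groups did not overlap, and within KP the highest tumour (KP 6) and the lowest (KP 8) were far apart. Group means were 16.9 ± 17.2 CPM (SD, n = 4) and 199 ± 91.4 CPM (n = 3), a log2 fold change of 3.57 (SE 0.79). With KPH2 1 included the difference was 3.16 with a larger SE of 1.27. Over all 8 tumours more than 3 counts of Zim1 were found only in KPH2 2 to KPH2 4, where Peg3 was highest. The tumours formed separate clusters on this pair, so no correlation is given and the relation cannot be tested here. Within 250 kb of either gene the table held 10 other genes, all with too few counts to be tested.

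Plagl1 (ZAC1), a zinc-finger transcription factor known to slow the cell cycle, went the other way. KP 5, 6, 7 and 8 had 26.3, 23.7, 29.4 and 11.6 CPM, and KPH2 2, 3 and 4 had 3.41, 9.19 and 4.83 CPM. All 3 lay below the lowest KP tumour, KP 8, and KPH2 1, at 16.2 CPM, lay inside the KP range. The means were 22.8 ± 7.81 and 5.81 ± 3.01 CPM (SD, n = 4 and 3), a log2 fold change of -1.97 (SE 0.43), or -1.43 (SE 0.49) over all 8. Its neighbour Phactr2, named after its values were seen and 76.0 kb away, had a log2 fold change of -0.83 with an adjusted p of 0.0533 by edgeR, and none of the 5 genes tested within 250 kb of Plagl1 passed by edgeR, where 1 had an unadjusted p under 0.05 and DESeq2 called 1.

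Mest, a paternally expressed gene for a protein with a hydrolase fold (chr6:30733506-30748466, plus strand), was among the steadiest of the 10 genes in KP and among the most variable in KPH2. KP tumours had 62.1, 60.7, 55.2 and 45.3 CPM. KPH2 2, 3 and 4 had 196, 1406 and 86.4 CPM and KPH2 1 had 322 CPM. All 4 KPH2 tumours stood above all 4 KP tumours, and KPH2 3 stood far above the rest. The means were 55.8 ± 7.65 and 563 ± 732 CPM (SD, n = 4 and 3). The log2 fold change was 3.33 (SE 0.83), 3.17 over all 8, and 1.34 without KPH2 3. The row of Mir335, which lies inside Mest and was chosen after its values were seen, had 2, 1, 0 and 3 counts in KP, 13 in KPH2 1, and 7, 23 and 1 in KPH2 2, 3 and 4. Reads of the precursor and of its host cannot be told apart there, and these libraries were not made for small RNA.

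Peg10, a gene derived from a retrotransposon and needed in the placenta, lies 0.102 kb from Sgce on chromosome 6 (Peg10 chr6:4747306-4760517, plus strand). Its level was 116, 124, 3.11 and 112 CPM in KP 5, 6, 7 and 8, 276 CPM in KPH2 1, and 428, 286 and 183 CPM in KPH2 2, 3 and 4. All 4 KPH2 tumours lay above all KP tumours, and KP 7 stood apart with 21 counts. Group means were 88.9 ± 57.4 CPM (SD, n = 4) and 299 ± 123 CPM (n = 3), with a log2 fold change of 1.75 (SE 0.86), 1.72 over all 8 and 1.35 without KP 7. Mest and Peg10 were the 2 genes of the 10 whose groups did not overlap with all 4 KPH2 tumours counted, where 8.16% of 14805 genes tested did not overlap.

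Sgce, the paternally expressed gene of ε-sarcoglycan that faces Peg10, was also low in KP 7. It had 35.3, 47.7, 2.37 and 39.3 CPM in KP, 45.4 CPM in KPH2 1, and 49.3, 73.8 and 32.3 CPM in KPH2 2, 3 and 4. Casd1, 104 kb from Peg10 and named after its values were seen, was not low there, with 46.4, 60.0, 57.1 and 53.0 CPM in KP 5, 6, 7 and 8. Over all 8 tumours the log2 levels of Peg10 and Sgce had a Pearson r of 0.961 (exact permutation p = 0.0147, adjusted over 3 pairs 0.0335) and a Spearman rho of 0.762 (exact permutation p = 0.0368, adjusted 0.0551). Without KP 7 and KPH2 2, the tumours farthest from the median of Peg10, r was 0.58 (exact permutation p = 0.235), so the pooled r rests on those tumours. With each group centred on its own mean, r was 0.98 and rho was 0.952. These values rest on KP 7 as well, which lowers the KP mean so far that KP 5, 6 and 8 lie above every KPH2 tumour in both genes once centred.

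**Figure D2:**
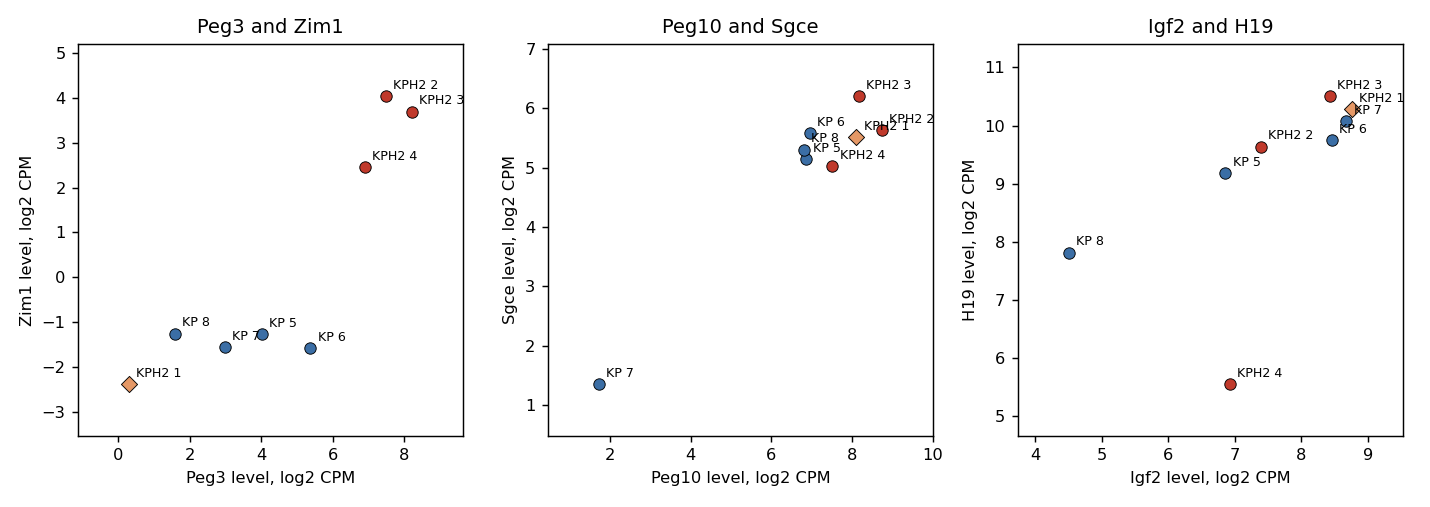
Levels of 3 pairs of neighbouring imprinted genes as log2 CPM, 1 point per tumour, with KP in blue, KPH2 2 to KPH2 4 in red and KPH2 1 as a diamond. KPH2 2 to KPH2 4 lie apart at the upper right for Peg3 and Zim1, KP 7 lies apart at the lower left for Peg10 and Sgce, and KPH2 4 lies low in H19 for its Igf2 level.

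Igf2, the fetal growth factor, and H19, a long non-coding RNA that shares its enhancers, lie 72.6 kb apart on chromosome 7 (Igf2 chr7:142650768-142666816, H19 chr7:142575530-142578146, minus strand). Igf2 was 116, 352, 409 and 22.5 CPM in KP 5, 6, 7 and 8, 432 CPM in KPH2 1, and 167, 343 and 121 CPM in KPH2 2, 3 and 4. H19 was 582, 862, 1085 and 225 CPM in KP, 1241 CPM in KPH2 1, and 796, 1459.7 and 46.7 CPM in KPH2 2, 3 and 4. In both genes the groups overlapped. KP 8 was lowest of all 8 in Igf2 and KPH2 4 was lowest in H19. Group means of Igf2 were 225 ± 185 and 210.3 ± 117 CPM (SD, n = 4 and 3) and the log2 fold change was -0.09 (SE 0.82). For H19 they were 688 ± 371 and 767 ± 707 CPM and 0.16 (SE 0.91). Per kilobase of exon, H19 had a mean level of 279.8 CPM and Igf2 of 39.3 CPM in KP, and these were 312 and 36.7 CPM in KPH2. The median over the genes tested that had a length (89.0%) was 5.75 CPM per kilobase in KP.

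The log2 levels of Igf2 and H19 over all 8 tumours had a Pearson r of 0.62 (exact permutation p = 0.103, adjusted over the 3 pairs 0.103) and a Spearman rho of 0.786 (exact permutation p = 0.0279, adjusted 0.0551). Neither passed 0.05 after adjustment. Without KP 8 and KP 5, the tumours farthest from the median of Igf2, r was 0.82 (exact permutation p = 0.0222) and rho was 0.657. With each group centred on its own mean, r was 0.67 (exact permutation p = 0.0705) and rho was 0.643 (exact permutation p = 0.0962). Copg2, a coatomer gene on the other strand, overlaps the end of Mest, and how reads in the overlap were counted is not known here. Mest and Copg2 gave an r of 0.78 (exact permutation p = 0.0223, adjusted 0.0335) and a rho of 0.643 (p = 0.0962 by the same exact test). That r fell to 0.37 without KPH2 3 and KPH2 1 (exact permutation p = 0.486), so it rests on those tumours, and it was 0.54 with each group centred on its own mean (exact permutation p = 0.175). For Cdkn1c the neighbour Phlda2 was at 0 to 0.300 CPM, near the floor, and Snrpn, set as the partner of Ndn because both belong to the same imprinted cluster, was listed at 0 counts in all 8, so neither pair was computed. Genes closer to Ndn were not set as partners. Snurf, which overlaps Snrpn, was also at 0 in all 8, and reads shared by overlapping genes may not have been counted to either.

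Cdkn1c (p57), a maternally expressed inhibitor of cyclin-dependent kinases, overlapped between the groups. It had 49.1, 15.2, 42.2 and 7.68 CPM in KP 5, 6, 7 and 8, 12.2 CPM in KPH2 1, and 13.02, 84.9 and 0.787 CPM in KPH2 2, 3 and 4. The highest and the lowest level of all 8 were both in KPH2 tumours. The means were 28.6 ± 20.2 and 32.9 ± 45.4 CPM (SD, n = 4 and 3) and the log2 fold change was 0.21 (SE 1.13). The log2 fold change was -2.02 without KPH2 3 and 0.78 without KPH2 4. In the same way that of H19 was -0.71 without KPH2 3 and 0.71 without KPH2 4.

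Grb10, an adaptor that dampens signalling from insulin and IGF receptors, was the most even of the 10. It ran from 421 to 564 CPM in KP, from 543 to 666 CPM in KPH2 2 to KPH2 4, and was 676 CPM in KPH2 1. The groups overlapped only through KP 5, at 564 CPM. Means were 490 ± 58.6 and 595 ± 63.6 CPM (SD, n = 4 and 3), and the log2 fold change was 0.28 (SE 0.16). Ndn, which encodes necdin, a MAGE-family protein of post-mitotic cells, ran from 35.2 to 79.9 CPM in KP and from 47.4 to 71.0 CPM in KPH2 2 to KPH2 4, with 26.2 CPM in KPH2 1. KP 5 held the highest Ndn level of the 8, and the other 3 KP tumours lay below KPH2 2 to KPH2 4. Its log2 fold change was 0.34 (SE 0.31), 0.71 (SE 0.19) without KP 5 and 0.12 (SE 0.36) over all 8.

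The spread among the 4 KP tumours is given as a description, since the genes were picked with these levels in view. The SD of log2 CPM in KP was 0.80 at the median of the 10 genes and 0.33 at the median of all genes tested, and 7 of the 10 lay above the latter. It was largest for Peg10 (2.58, a higher SD than in 99.8% of genes tested), Igf2 (1.93, 99.4%), Peg3 (1.61, 98.7%), Cdkn1c (1.25, 96.5%) and H19 (1.002, 93.6%). It was 0.21 for Mest, 0.18 for Zim1, which is set by the prior count at counts so low, and 0.17 for Grb10. No single tumour was lowest in all of them. KP 8 was lowest of KP in Peg3, H19, Igf2, Cdkn1c, Plagl1, Mest and Ndn, and KP 7 in Peg10.

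**Figure D3:**
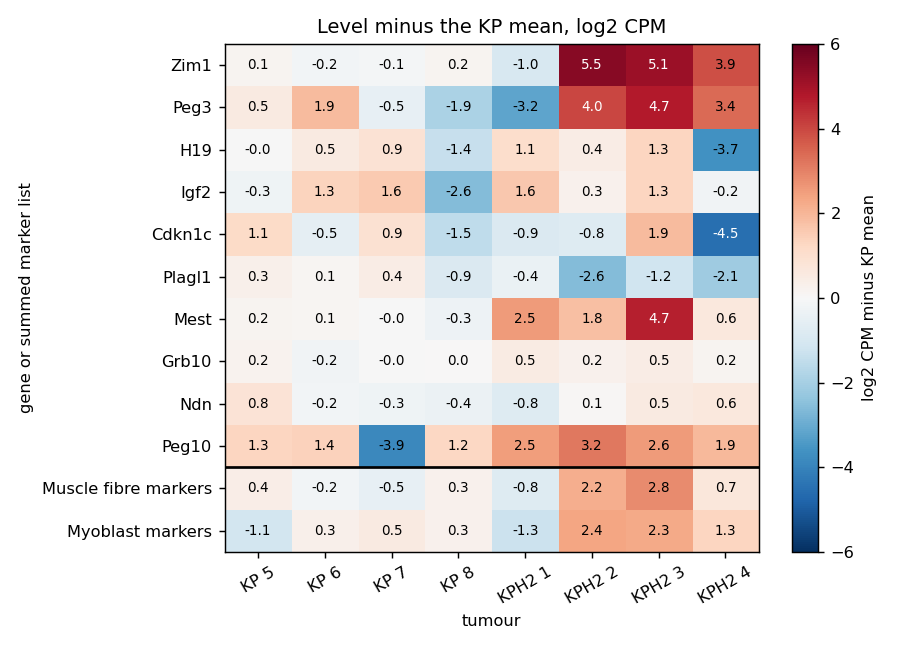
Level of each gene, and of the summed CPM of 2 marker lists below the line, in every tumour as log2 CPM minus the mean of the 4 KP tumours, with red above and blue below that mean. KPH2 3 is the highest tumour for Peg3, H19, Cdkn1c, Mest and the muscle fibre markers, and KPH2 4 is lowest for H19 and Cdkn1c.

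Markers of skeletal muscle moved with several of these levels. All 30 muscle fibre markers had a positive log2 fold change (median 2.08). By edgeR 3 passed an adjusted p of 0.05 (Eno3, Myoz2 and Neb), where 1.96% of all genes passed. An unadjusted p under 0.05 was found for 28 (17.8% of all genes), and DESeq2 called 22 (7.25% of all genes). For 12 of the 30 the groups did not overlap, with KPH2 higher (8.67% of all genes). Their summed level was 2034 to 3679 CPM in KP, 1650 CPM in KPH2 1, and 12933, 20177 and 4523 CPM in KPH2 2, 3 and 4. Of 9 satellite cell and myoblast markers 5 were tested, with a median log2 fold change of 3.88. Of these 1 passed, Myf5 (5.59, SE 1.04, adjusted p = 0.0418 by edgeR), where 1.96% of all genes passed. All 5 had an unadjusted p under 0.05 (17.8% of all genes), and DESeq2 called 4 of 7 (7.25% of all genes). That list summed to 36.9 to 116 CPM in KP, 32.6 CPM in KPH2 1 and 195 to 413 CPM in KPH2 2 to KPH2 4. No marker of either list was at 0 in every tumour. KPH2 3 was highest and KPH2 4 lowest of these 3 KPH2 tumours in the fibre sum, and the same was true of Peg3, H19, Igf2, Cdkn1c, Mest and Grb10 but not of Zim1, Peg10, Ndn and Plagl1. KPH2 1 had the lowest fibre sum of all 8. In that tumour Peg3 was also the lowest of all 8 and Zim1 had 0 counts, Ndn lay below the KP range, Cdkn1c and Plagl1 lay inside it, and H19, Igf2, Mest, Grb10 and Peg10 lay above it. When the muscle fibre marker score was added to the fit, the SE of each of the 10 genes grew. On the log2 scale the difference was 4.54 for Zim1 (SE 0.52), 3.41 for Peg3 (SE 1.46) and -2.18 for Plagl1 (SE 0.81). It was 0.75 for Peg10 (SE 1.39), 0.05 for Mest (SE 1.13) and 0.0088 for Grb10 (SE 0.26). For Igf2 it was 0.34 (SE 2.11), for Ndn 0.24 (SE 0.50), for H19 -3.19 (SE 2.66) and for Cdkn1c -5.11 (SE 2.41). The part of muscle or myoblast RNA in these results was not tested. In bulk tumours more cells of a type and more RNA per cell cannot be told apart.

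The other marker lists are given as checks of the tissue. The mesenchymal markers of the tumour were all present and summed to 18254 to 42955 CPM in KP and 22047 to 30870 CPM in KPH2 2 to KPH2 4. Of these 10 markers 1 passed (1.96% of all genes), Pdgfra, which fell (log2 fold change -2.02, adjusted p = 0.0183 by edgeR). An unadjusted p under 0.05 was found for 2 (17.8% of all genes), and DESeq2 called 1 (7.25% of all genes). None of 9 macrophage, 8 endothelial and 3 adipocyte markers tested passed by edgeR. Of them 4, 4 and 1 had an unadjusted p under 0.05 (17.8% of all genes), and DESeq2 called 1, 3 and 0 (7.25% of all genes). Their median log2 fold changes were -0.38, -0.58 and -0.03. Epas1 itself was 59.1, 83.0, 86.7 and 83.9 CPM in KP, 32.6 CPM in KPH2 1, and 53.2, 37.6 and 42.4 CPM in KPH2 2, 3 and 4. Every KPH2 tumour lay below every KP tumour, with a log2 fold change of -0.81 (SE 0.19, adjusted p = 0.0742 by edgeR).

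Other imprinted genes were read from the same fit. Of 55 listed, 52 were in the table and 37 were tested. By edgeR 3 rose, Zdbf2, Sfmbt2 and Ppp1r9a, and none fell, where 1.96% of all genes passed. An unadjusted p under 0.05 was found for 8 of the 37 (17.8% of all genes), and the median log2 fold change was 0.08. The groups did not overlap for 5 that were higher and 2 that were lower in KPH2 (8.67% and 8.2% of all genes). The 2 lower, named after their values were seen, were Dcn and Htr2a. Their log2 fold changes were -1.89 and -1.84 (adjusted p = 0.122 and 0.137 by edgeR). DESeq2 called 6 of 40 (7.25% of all genes), 4 higher and 2 lower. The list was put together with results of these data known. Over all 8 tumours none of the 37 passed by edgeR, where 8 had an unadjusted p under 0.05 (14.7% of all genes).

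Zdbf2, a paternally expressed gene for a zinc-finger protein (chromosome 1), had 6.08, 5.79, 4.00 and 1.96 CPM in KP 5, 6, 7 and 8 and 49.9, 62.4 and 26.7 CPM in KPH2 2, 3 and 4. KPH2 1 lay below KP at 0.56 CPM, as it did for Peg3. Its log2 fold change was 3.38 (SE 0.43, adjusted p = 0.0181 by edgeR), with an adjusted p of 0.0516 without KP 7 and 0.0539 without KPH2 2. Sfmbt2, a Polycomb-group gene imprinted in extraembryonic tissue, had 2.64 to 4.30 CPM in KP and 27.4, 9.29 and 14.3 CPM in KPH2 2, 3 and 4, with KPH2 1 inside the KP range at 3.04 CPM. Its log2 fold change was 2.30 (SE 0.38, adjusted p = 0.0289 by edgeR). Leaving out KP 6, KP 7, KP 8, KPH2 2 or KPH2 4 took it past 0.05 (adjusted p up to 0.0833 by edgeR).

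Ppp1r9a encodes neurabin, an actin-binding protein, and lies 142 kb from Peg10. It had 8.08, 22.4, 16.1 and 16.7 CPM in KP and 58.8, 42.3 and 44.3 CPM in KPH2 2, 3 and 4, with KPH2 1 also above KP at 37.7 CPM. All 4 KPH2 tumours were above all 4 KP tumours, as for Peg10 and Mest. The log2 fold change was 1.62 (SE 0.31, adjusted p = 0.0425 by edgeR), and this passed without KP 5 but not without any other single tumour (adjusted p up to 0.144). Of the 4 genes tested within 250 kb of Peg10 it was the only one that passed. Around Zim1 and Peg3 no other gene was tested. Around each of the other 7 genes none passed by edgeR, where 0 to 3 per gene had an unadjusted p under 0.05 and DESeq2 called 0 to 2. Magel2, 27.1 kb from Ndn and named after its values were seen, had 0.0753 to 1.11 CPM in KP, 0 counts in KPH2 1 and 3.68, 3.29 and 6.41 CPM in KPH2 2, 3 and 4. Its log2 fold change was 3.30 (SE 0.72) with an adjusted p of 0.0602 by edgeR.

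**Figure D4:**
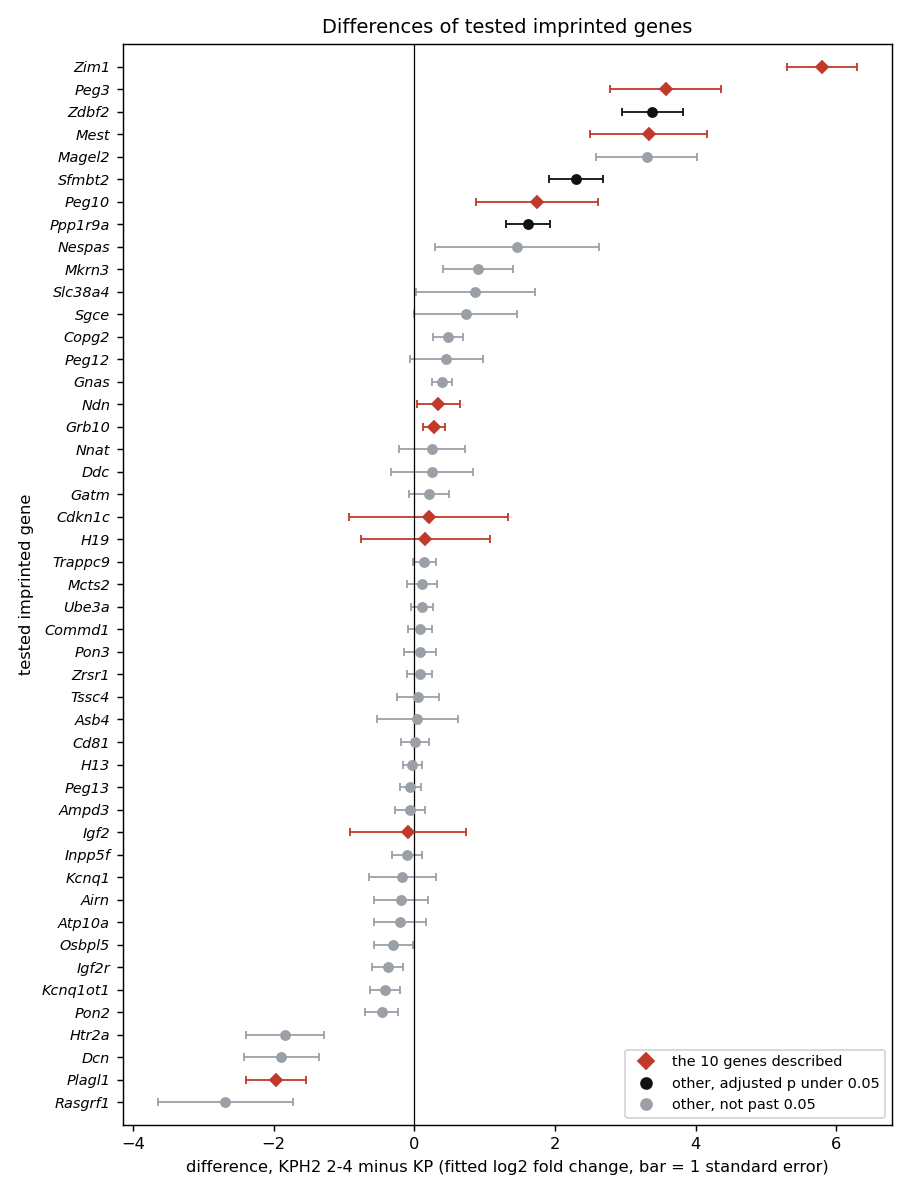
Fitted log2 fold change, KPH2 2 to KPH2 4 minus KP, of the 10 genes (red diamonds) and the 37 other imprinted genes tested (circles, black where the adjusted p was under 0.05), ordered by size, with bars of 1 SE. Most of the other imprinted genes lie close to 0, and Zdbf2, Sfmbt2 and Ppp1r9a are the 3 in black.

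The genes around IGF2 signalling were Igf1, receptors and their substrates, binding proteins, their proteases, RNA-binding regulators, Hmga1 and Hmga2. Igf2r is also in the list of other imprinted genes. Of these 22 genes, 20 were tested and none passed by edgeR. An unadjusted p under 0.05 was found for 4 of them (17.8% of all genes), and DESeq2 called 4 (7.25% of all genes). The median log2 fold change was 0.08. The smallest p-values were those of Hmga1, a chromatin protein of growing cells, Lin28b, an RNA-binding protein that blocks let-7, and Pappa2, a protease of IGF-binding proteins. Hmga1 was 33.9 to 68.2 CPM in KP and 87.4 to 146 CPM in KPH2 2 to KPH2 4 (log2 fold change 1.13, adjusted p = 0.0707 by edgeR). Lin28b was 0.148 to 0.847 CPM in KP and 1.10 to 5.30 CPM in KPH2 (2.69, adjusted p = 0.0749 by edgeR). Pappa2 was 18.9, 8.05, 22.6 and 1.13 CPM in KP and 1.01 to 1.30 CPM in KPH2 2 to KPH2 4 (-3.47, adjusted p = 0.106 by edgeR). KPH2 1 held 21.6 CPM of Pappa2, and over all 8 tumours its log2 fold change was -1.002 (SE 1.16). For Hmga1 and Lin28b KPH2 1 held 67.8 and 1.36 CPM.

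Of 16 factors that set, keep or erase imprints, 14 were tested and 1 passed by edgeR (1.96% of all genes). An unadjusted p under 0.05 was found for 3 (17.8% of all genes), and DESeq2 called 2 (7.25%). Of the 3, Dnmt3a and Trim28 rose without overlap of the groups, and KPH2 1 also lay above KP. Named after their values were seen, they had log2 fold changes of 0.75 and 0.37 (adjusted p = 0.0547 and 0.239 by edgeR). The 1 that passed was Dnmt3l. Dnmt3l, the partner of the germ-line DNA methyltransferases, fell from 1.33 to 4.45 CPM in KP to 0.359, 0.300 and 0.337 CPM in KPH2 2, 3 and 4, which is 4, 3 and 3 counts. KPH2 1 lay inside the KP range at 1.84 CPM. The log2 fold change was -3.02 (SE 0.55, adjusted p = 0.0377 by edgeR), it passed without KP 5 but not without any other single tumour (adjusted p up to 0.131), and over all 8 tumours it was -1.91 (adjusted p = 0.246).

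The genes whose log2 level followed Zim1 most closely over all 8 tumours, among 14736 genes with a mean of at least 1 CPM, included Eno3 (Pearson r 0.979), the enolase of muscle fibres, Gm10305 (0.973), AI467606 (0.973) and Dnajc15 (0.971). These tumours share the split between KPH2 2 to KPH2 4 and the rest, so the values describe that split. Eno3 was 12.9 to 27.3 CPM in KP, 16.8 CPM in KPH2 1, and 187, 196 and 108 CPM in KPH2 2, 3 and 4.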

How the data were processed

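RNA-seq of 8 UPS tumours was used. Per the labels and the study's methods, the authors processed reads with CASAVA 1.8.2, used STAR 2.4 for alignment (GRCm38), and took unique alignments to RefSeq genes as counts with HTSeq 0.6.1. Their deposited raw counts are not normalized, and whether strand was used in counting is not given in the sources used here. Log2 values made by the authors with DESeq2 1.6 (rlog), over 7 and 8 tumours, were used here as an alternative only. Labels are the source of the groups, the label prefix is common to all 8 tumours and no batch is given.

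Counts were fitted in R 4.3.3 with edgeR 4.0.16 (TMM, minimum count 10, minimum total count 15, robust quasi-likelihood test, no covariates) over the 4 KP and 3 KPH2 tumours, with Benjamini-Hochberg adjustment over 14867 genes. The biological coefficient of variation was 0.313. CPM used TMM library sizes, and log2 CPM a prior count of 2. Libraries differed from each other by more than sampling noise, and p-values measure the spread between tumours of separate mice. Intervals and floors cover counting error only.

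The 10 genes and all lists were chosen with earlier results of these data known. Other genes named are those of each list past an adjusted p of 0.05, or the 3 with the smallest p where none passed, 4 of the 5 nearest to Zim1, Epas1 and the neighbours. A few others are marked where they stand as named after their values were seen. Lists of other cell types that had none past it are given by counts. Some items of the genotypes, the rule and the lists are not reported here. Alternatives were all 8 tumours, other normalizations and filters, DESeq2 1.42.0, the muscle covariate, the rlog values and leaving out each tumour. All 8 tumours without a filter was added after seeing the data.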

Additional observations from a re-analysis of the deposited data

Results flagged for a closer look

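In 3 of 20 groups examined (the 10 genes in KP 5 to KP 8 and in all 4 KPH2 tumours), 1 tumour lay farther from the others than Dixon's 95% limit, which chance passes in about 1 in 20 groups. The genes were picked with these levels in view, so that rate is no test of them. Peg10 was 3.11 CPM in KP 7, against 112 to 124 CPM in the other KP tumours. Ndn was 79.9 CPM in KP 5, against 35.2 to 40.5 CPM in the other KP tumours. Cdkn1c was 84.9 CPM in KPH2 3, against 0.787 to 13.02 CPM in the other KPH2 tumours. This was judged on CPM. On the log2 scale Peg10 in KP 7 stayed past the limit, Ndn in KP 5 lay just inside it and Cdkn1c in KPH2 3 lay well inside it.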

How the results depend on the processing

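No paired analysis was possible because the labels give the groups no shared replicate numbers. The count of genes called was 292 in the 7 tumours, 1 over all 8 (Dmp1), 11 over all 8 without a filter, 1178 by DESeq2, 4 with the muscle covariate (Add2, Ezr, Lama5 and Serpinb2) and 55 to 349 when 1 tumour was left out, the lowest without KPH2 2. The 3 other imprinted genes became 0 over all 8, 6 by DESeq2, 0 with the muscle covariate and 0 to 5 with 1 tumour left out, with 0 without KP 7 or KPH2 2. The 0 genes around IGF2 became 4 by DESeq2 and 0 to 1 with 1 tumour left out, and the 1 imprinting regulator became 0 over all 8, 0 at a mean count of 50 or more (where Dnmt3l was not tested), 2 by DESeq2, 0 with the muscle covariate and 0 to 1 with 1 tumour left out. With the muscle covariate the log2 fold changes of the calls lost were 2.64 for Zdbf2 (3.38 without it), 2.33 for Sfmbt2 (2.30), 1.94 for Ppp1r9a (1.62) and -3.08 for Dnmt3l (-3.02), with larger SEs. With it H19 turned to -3.19 and Cdkn1c to -5.11, and the cause was not tested. The correlation of Mest and Copg2 was 0.54 with groups centred. Of 169 values for the 10 genes under alternatives, 156 moved by less than 1 SD between tumours, 11 by more and 2 turned in sign by more than that. That SD was wide for H19, Igf2 and Cdkn1c (1.85, 1.57 and 2.26 in log2 CPM), so few of their moves could pass it. Their signs were not steady. Of 17 alternatives H19 was negative in 5, Igf2 positive in 9 and Cdkn1c negative in 8. In the authors' rlog values the differences over 7 and 8 tumours were 2.02 and 2.28 for Zim1, 2.50 and 1.90 for Peg3, 1.62 and 1.95 for Mest, and -1.11 and -1.18 for Plagl1. Depth limits Zim1 in KP, Dnmt3l in KPH2, Phlda2 and Mir335.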
